A study of Mus musculus with 2 samples.

Results

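Long non-coding RNA (lncRNA) genes annotated in the mouse were followed in 2 long-read RNA libraries of gastrocnemius, a calf muscle made mostly of fast fibres. The genes were chosen by annotation and not by their level: autosomal genes of the deposited tables that are known to the GENCODE M21 annotation and whose gene type is 1 of 8 non-coding types, without H19, Meg3, Rian, Mirg and Gm29253. Reads of all transcript models of a gene were summed. By this rule 1225 genes had at least 1 read, out of 14451 annotated endogenous genes with a read, and 6 of the 8 types were represented. The libraries are replicates 1 and 2 of a single group of female adult B6CASTF1/J mice, an F1 hybrid of the C57BL/6J and CAST/EiJ strains, aged 18 to 20 months, with no treatment named and 2 µg of RNA as input for each. Both carry the same donor record, and the number of animals behind each library is not clear from the labels. A p-value below speaks of the spread between this pair of libraries and of nothing wider, and that spread may be technical. There is no second group, and the comparisons are between the libraries, between gene types and with protein coding genes. In whole muscle, fewer cells of a type and less RNA per cell cannot be told apart.

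An lncRNA is transcribed, and often spliced and polyadenylated, like an mRNA, but is not known to encode a protein. Some act as scaffolds in the nucleus (Neat1 in paraspeckles, Malat1 at nuclear speckles), some act in the cytoplasm (Norad binds Pumilio proteins, Cyrano pairs with the microRNA miR-7 and directs its decay), and many are hosts from which snoRNAs or microRNAs are cut. In skeletal muscle several lncRNA genes lie among the genes of contractile proteins. The types are labels of the annotation: bidirectional promoter lncRNAs start head to head with a coding gene, antisense lncRNAs overlap a gene on the opposite strand, and lincRNAs lie between genes.

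The sequences below belong to lncRNA genes on which the results turn. The first 3 are promoter windows of muscle loci from RefSeq (GRCm38.p6), running from 250 bases before to 50 bases after the annotated start. Capitals mark matches to the E-box CANNTG, which MyoD-type factors bind, or to TATAAA, both searched on both strands. They are shown because many reads of Nctc1 and Myhas are in deposited models that begin at these starts, and no reads of Prr33 are.
Prr33, chr7:142506722-142507021, minus strand: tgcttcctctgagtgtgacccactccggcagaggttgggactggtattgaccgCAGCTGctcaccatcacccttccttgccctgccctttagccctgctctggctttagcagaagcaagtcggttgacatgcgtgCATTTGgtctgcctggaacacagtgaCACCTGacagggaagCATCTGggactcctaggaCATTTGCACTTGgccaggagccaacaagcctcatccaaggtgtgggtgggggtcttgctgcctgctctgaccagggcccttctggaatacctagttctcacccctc
Nctc1, chr7:142558549-142558848, minus strand: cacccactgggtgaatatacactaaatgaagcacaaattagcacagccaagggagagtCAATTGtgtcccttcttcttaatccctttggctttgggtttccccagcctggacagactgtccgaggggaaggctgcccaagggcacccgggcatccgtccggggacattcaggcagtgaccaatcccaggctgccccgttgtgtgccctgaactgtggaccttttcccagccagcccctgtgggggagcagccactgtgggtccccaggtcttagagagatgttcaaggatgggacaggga
Myhas, chr11:67237232-67237531, minus strand: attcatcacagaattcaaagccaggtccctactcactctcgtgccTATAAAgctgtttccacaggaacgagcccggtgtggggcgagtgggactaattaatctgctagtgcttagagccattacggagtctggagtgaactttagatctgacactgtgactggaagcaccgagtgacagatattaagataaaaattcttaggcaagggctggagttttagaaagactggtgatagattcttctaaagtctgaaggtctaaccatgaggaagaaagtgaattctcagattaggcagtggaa
The next 4 are the microRNA cut from an exon of the lncRNA Mir22hg, the microRNA miR-7a with its site in Oip5os1 (Cyrano), and a stretch of Norad. The microRNAs are from RefSeq (GRCm38.p6), and the transcript stretches from GENCODE M21 (GRCm38). In the microRNAs capitals mark the seed, bases 2 to 8, in the Oip5os1 site the match to the miR-7a seed, and in Norad the Pumilio element TGTANATA.
mmu-miR-22-3p, chr11:75463772-75463793, plus strand: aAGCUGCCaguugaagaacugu
mmu-miR-7a-5p, chr7:78888295-78888317, plus strand: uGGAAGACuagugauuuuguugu
Oip5os1 site, chr2:119602135-119602164, plus strand: gaacaacaaaatcaccaatGTCTTCCattt
Norad stretch, chr2:156390507-156390806, minus strand: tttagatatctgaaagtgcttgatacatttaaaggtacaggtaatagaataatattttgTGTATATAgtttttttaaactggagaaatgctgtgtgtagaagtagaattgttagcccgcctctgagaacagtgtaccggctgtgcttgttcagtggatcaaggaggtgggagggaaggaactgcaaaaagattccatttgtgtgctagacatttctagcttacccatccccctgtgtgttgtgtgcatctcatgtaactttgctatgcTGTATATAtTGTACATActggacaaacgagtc

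The E-box was present in 72.3% of 32851 mouse promoter windows of 300 bases. The Prr33 window held 6, and 0.67% of windows held at least as many, whereas the Nctc1 window held 1. The Myhas window held 0, as did that of the muscle locus 2310065F04Rik, which is not shown. TATAAA was present in 13.6% of windows and once in that of Myhas, with its first base at -205 from the start. A match describes the letters and is not evidence of a bound site. The 5′ ends given here are those of the deposited models, and where each read began was not examined. Reads assigned to annotated transcripts were 129 and 87 for Nctc1, 21 and 21 for Myhas and 0 and 0 for Prr33. Deposited models of annotated transcripts carry the annotated ends, so the shares below partly restate this assignment and are not a measure of start use. How far they go beyond it was not tested. Of 178 Nctc1 reads in replicate 1, 133 (74.7%) were in models that began within 50 bases of the RefSeq start, and 142 of 154 (92.2%) in replicate 2. For Myhas these were 21 of 40 (52.5%) and 22 of 40 (55.0%). For 2310065F04Rik they were 11 of 95 (11.6%) and 3 of 102 (2.94%). For Prr33 they were 0 of 363 and 0 of 289, and the most used 5′ end of its models lay 2058 bases downstream of the start in replicate 1 and 2706 bases in replicate 2. The Prr33 window is thus that of an annotated start to which no model of these libraries extended. In the 8300-base Oip5os1 transcript the miR-7a seed match occurred 2 times, and beside the one shown a second run of 13 bases paired with miRNA bases 11 to 23. The 4915-base Norad transcript held 11 Pumilio elements, 2.24 per 1000 bases, and 3 of them lie in the stretch shown. Of 68537 annotated transcripts of at least 1000 bases, 0.0336% had as high a density or a higher one.

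Replicate 1 held 1117891 reads of annotated endogenous genes and replicate 2 held 975696, and levels are given as CPM, the reads per 1000000 of these. A long read counts 1 molecule, so levels were not divided by length. The 9 muscle fibre markers were all present and summed to 159341 and 166223 CPM. The libraries differed in other markers: the fibre gene Myh7, of slow fibres, was higher in replicate 2 (183 and 2330 reads). Of 5 fibroblast markers 3 were higher in replicate 2, Col3a1 among them (60 and 189), and 1 in replicate 1, Dcn (253 and 119), while the 4 macrophage markers summed to 51 and 13 reads and the 3 Schwann cell markers to 65 and 23. The part of these differences in any result below was not tested. A count of 0 allows up to 3 reads, 2.68 CPM in replicate 1 and 3.07 CPM in replicate 2. Intervals and these limits cover counting error only.

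The lncRNA genes were many and mostly sparse. They took 5876 reads in replicate 1 and 4625 in replicate 2, which is 0.526% (Wilson 95% interval 0.512 to 0.539) and 0.474% (0.461 to 0.488) of the libraries, a mean of 0.50% ± 0.036 (SD, n = 2). The share was higher in replicate 1 beyond counting error (2-sided Fisher's exact test, p = 1.32e-07). Replicate 1 detected 918 of the genes and replicate 2 detected 828, with 521 in both. Of the 704 seen in a single library, 522 rested on 1 read and the most read had 9. Out of all 14451 annotated endogenous genes with a read, replicate 1 detected 13149 and replicate 2 detected 12699. The median lncRNA gene had 2 reads over both libraries, against 21 for a detected coding gene. At least 10 reads were reached by 171 lncRNA genes and by 8047 of 12386 coding genes (65.0%), and those 171 held 76.3% of the lncRNA reads. At least 100 reads were reached by 15.

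By type, the 453 lincRNA genes held the most reads, 43.4% ± 0.38 of lncRNA reads (SD, n = 2), followed by 477 antisense genes with 26.9% ± 0.37. The 207 processed transcript genes held 19.2% ± 0.34, but without Genomic reads they exceeded the antisense genes (21.5% against 20.7%). Apart from these came the 66 bidirectional promoter lncRNA genes with 9.45% ± 0.24. The 17 sense intronic genes held 0.89% ± 0.12 and the 5 sense overlapping genes 0.12% ± 0.047. No type share differed between the libraries past the threshold of 0.05 (2-sided Fisher's exact test, smallest p = 0.404, adjusted p = 0.579 for each of the 6). Few genes held much of the signal: the 20 with the highest mean level took 42.1% of lncRNA reads in replicate 1 and 45.2% in replicate 2. By chromosome, 7 held the most lncRNA reads in replicate 1, with 853 over 95 genes, and 2 held the most in replicate 2, with 731 over 84 genes.

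**Figure D1:**
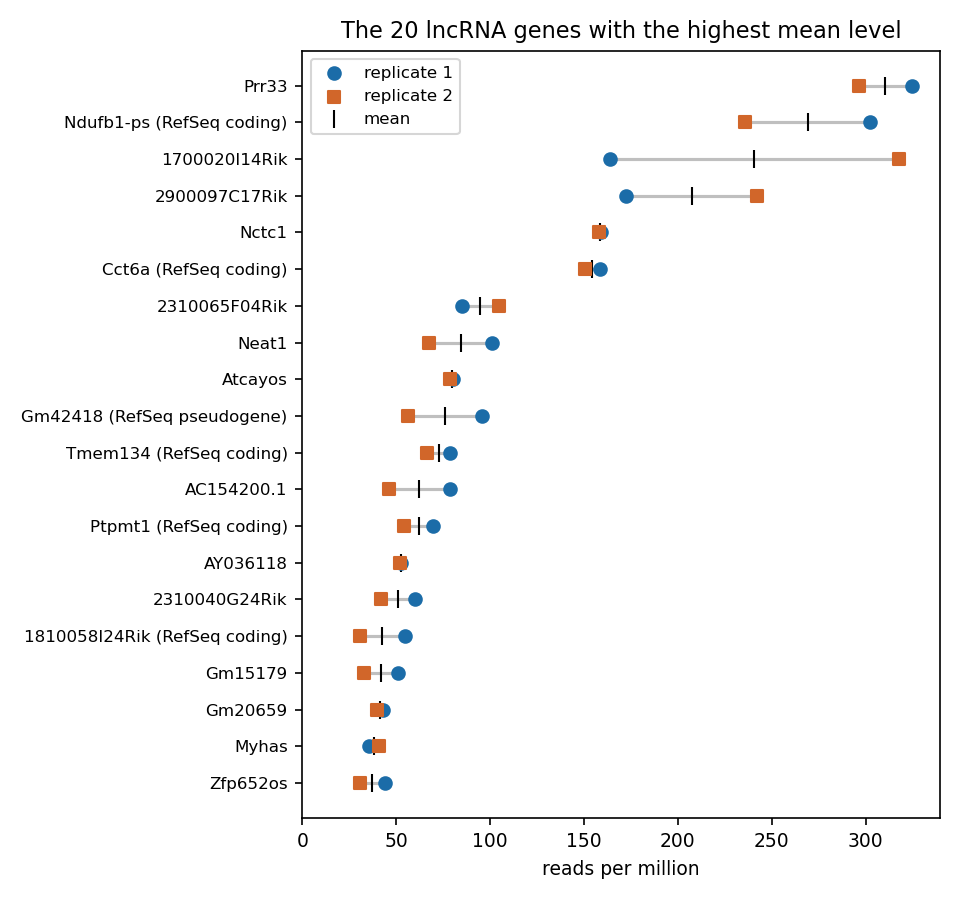
Level of the 20 lncRNA genes with the highest mean, in CPM, with 1 point per library; genes that RefSeq lists as coding or as a pseudogene are marked. Prr33 leads with 325 and 296 CPM, and 1700020I14Rik (Oip5os1) has the widest gap between libraries, 164 and 318 CPM.

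The highest level belonged to a gene beside troponin genes. Prr33, annotated as a lincRNA at chr7:142491074-142506771 on the minus strand, overlaps Tnnt3, the gene of fast skeletal troponin T, and Lsp1 on the opposite strand. It had 363 and 289 reads, or 325 and 296 CPM (mean 310.5 ± 20.2, SD, n = 2). The libraries did not differ past the threshold (1.01-fold, exact 95% interval 0.87 to 1.19, adjusted p = 1, exact binomial test). Its neighbours Tnnt3 (2917 and 1821 reads) and Tnni2, fast troponin I (5257 and 2321 reads), were both higher in replicate 1. No Prr33 read fell in a complete annotated transcript. A single-exon model in the part under Tnnt3 held 162 reads (44.6%) in replicate 1 and 155 (53.6%) in replicate 2, and 4.26% and 4.60% of the bases of these models lay over an opposite coding exon. The leading spliced model, 2159 bases in 2 exons, held 66 and 53 reads. Models were built in each library separately, and a single-exon model of the gene was classed as an incomplete match with 81 reads in replicate 1 and another as Genomic with 44 reads in replicate 2. Without Genomic reads Prr33 was higher in replicate 1 by a log2 ratio of 0.85 (adjusted p = 5.4e-05, exact binomial test), so whether its libraries differ depends on how these models were classed.

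Nctc1, a transcript known from the muscle enhancer region of the Igf2 and H19 domain, lies on the same strand at chr7:142544609-142558596. It had 178 and 154 reads, or 159 and 158 CPM, and the libraries were within counting error of each other (1.07-fold, 0.86 to 1.34, adjusted p = 0.828, exact binomial test). Its 2-exon annotated transcript of 2663 bases held 129 reads (72.5%) in replicate 1 and 87 (56.5%) in replicate 2. The leading Genomic model, unspliced, held 33 and 49.

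The fast myosin cluster on chromosome 11 holds lncRNA genes on the strand opposite to the myosin genes. 2310065F04Rik, known as linc-Myh, lies at chr11:67112461-67120080 and had 95 and 102 reads, or 85.0 and 104.5 CPM (1.33-fold, 0.997 to 1.78, adjusted p = 0.208, exact binomial test). Myhas, at chr11:67211256-67237573, overlaps Myh1 and starts beside Myh4. It had 40 and 40 reads, or 35.8 and 41.0 CPM (1.24-fold, 0.78 to 1.97, adjusted p = 0.69). Neither differed past the threshold. 9430073C21Rik, antisense to the end of Myh2 and too sparse to test, had 7 reads and 1 read; it falls outside the rule for named genes and was added after its values were seen. The myosin genes around them differed more: Myh1 of type 2X fibres had 1520 reads in replicate 1 against 7086 in replicate 2 (5.78-fold, 5.47 to 6.12), Myh2 of type 2A fibres 349 and 1987 (7.06-fold, 6.30 to 7.94), and Myh4 of type 2B fibres 21229 and 29839 (1.74-fold, 1.71 to 1.78). The fold intervals of both lncRNA genes lie below those of Myh1 and Myh2, while the interval of Myh4 lies within both.

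**Figure D2:**
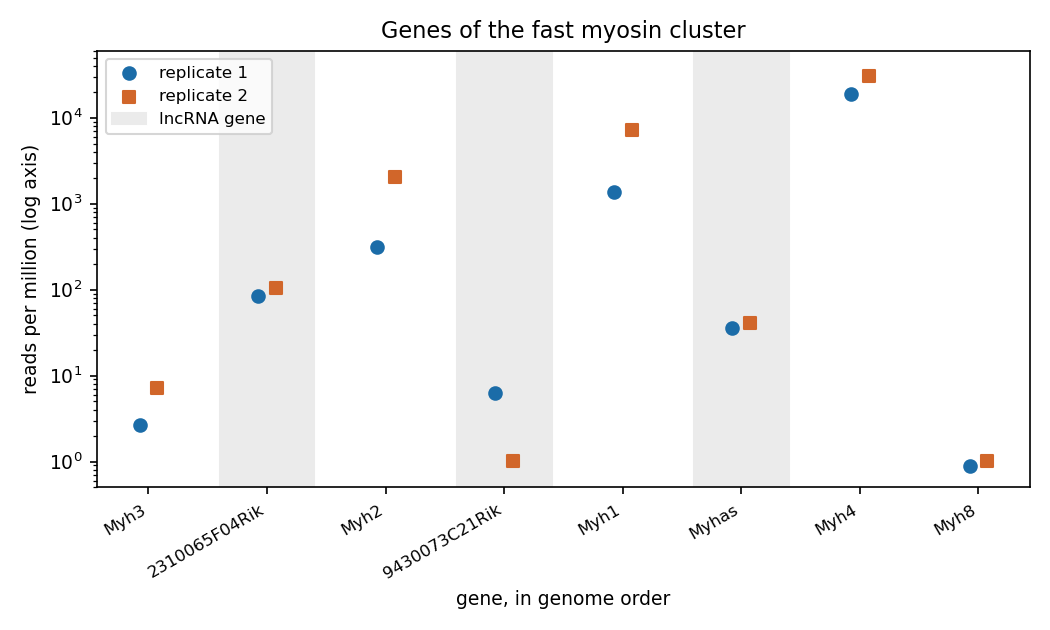
CPM of lncRNA and coding genes of the fast myosin cluster in each library, on a log axis. Myh1 and Myh2 stand well above in replicate 2, while the points of Myhas (35.8 and 41.0 CPM) and 2310065F04Rik (85.0 and 104.5 CPM) lie close together.

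Among lncRNAs with known roles, Oip5os1 and Norad were the most abundant. Oip5os1, listed as 1700020I14Rik at chr2:119594297-119607502, is the Cyrano RNA that pairs with miR-7. It had 183 and 310 reads, or 164 and 318 CPM, and was 2.10-fold higher in replicate 2 (1.75 to 2.54, adjusted p = 4.96e-14, exact binomial test). The 8300-base transcript that holds the site shown above was assigned 69 reads (37.7%) and 141 reads (45.5%). Whether single reads span the site was not examined, and models of 1 exon held 65 and 98 reads of the gene. Norad, listed as 2900097C17Rik at chr2:156388065-156392979, binds Pumilio proteins through its repeated elements. It had 193 and 236 reads, or 173 and 242 CPM, and was 1.52-fold higher in replicate 2 (1.25 to 1.84, adjusted p = 0.000397). Its reads were assigned mainly to 2 single-exon transcripts, and whether single reads span them was not examined. The 4915-base transcript with the elements held 85 reads (44.0%, Wilson 95% interval 37.2 to 51.1) in replicate 1 and 61 (25.8%, 20.7 to 31.8) in replicate 2, and the 339-base one 105 and 175. The share of the long transcript was thus lower in replicate 2, with intervals that do not overlap. Its count was lower there as well, so the higher level of the gene in replicate 2 lay in reads assigned to the 339-base transcript. Of the 31-base words of the Norad transcript, 44.7% also occur in another gene, mostly Gm7292, so reads could be split between them.

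The nuclear scaffold RNAs leaned the other way. Neat1 had 113 and 66 reads, or 101 and 67.6 CPM, which did not pass the threshold (1.38-fold, 1.01 to 1.90, adjusted p = 0.201, exact binomial test). Most of its reads were assigned to the 20771-base single-exon transcript, 99 (87.6%) and 60 (90.9%). The lengths of single reads were not examined, so the assignment does not show that a read spans this transcript. Malat1 had 41 and 6 reads, or 36.7 and 6.15 CPM, and was 5.51-fold higher in replicate 1 (2.33 to 15.9, adjusted p = 0.000124). Under edgeR's exact test with a common dispersion its adjusted p was 0.397. Of 15 names in the list of nuclear and chromatin lncRNAs 11 had reads and 6 were tested: Malat1 was higher in replicate 1 and Oip5os1 and Norad in replicate 2, with a median log2 ratio of -0.17, against -0.0073 over all genes tested. Oip5os1 and Norad are on this list although both are given above as acting in the cytoplasm. The list result thus does not describe nuclear lncRNAs alone. Over all genes tested 11.7% passed in either direction. Tug1 had 7 and 5 reads and Kcnq1ot1 had 1 read and none.

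Hosts of small RNAs were sparse. Of 26 snoRNA host names 19 had reads (147 and 82 in the libraries) and 11 were tested. None passed the threshold, 0 had an unadjusted p under 0.05, 9 leaned to replicate 1 and 2 to replicate 2, and their median log2 ratio was 0.61. The list and these values include 1810026B05Rik (9 and 5 reads), Chaserr in RefSeq, which holds no snoRNA by position in the annotation. Over all genes tested the median was -0.0073. Over lncRNA genes with 10 to 19 reads it was 0.076 and with 20 to 49 reads 0.54, and the tested hosts fall in both ranges. Of coding genes in these ranges 1.58% and 3.86% passed, and of all genes tested 11.7%. The absence of calls among 11 hosts cannot be told from these shares. Gas5, whose introns hold snoRNAs, had 23 and 15 reads. Snhg9 had 18 and 7, Snhg8 had 17 and 7, and Snhg5 had 14 and 6. By position in the annotation, 32 lncRNA genes hold a snoRNA or scaRNA within them, and of the 14 tested 0 passed and 8 leaned to replicate 1, with a median of 0.36. Of 17 microRNA host names 6 had reads and 3 were tested, with none past the threshold and Mir22hg at an unadjusted p under 0.05. Mir22hg, whose exon holds the miR-22 sequence shown above, had 33 and 13 reads (2.05-fold, 1.05 to 4.24, adjusted p = 0.148, exact binomial test), and its leading 3-exon transcript held 27 of 33 (81.8%) and 12 of 13 (92.3%). Dleu2, host of miR-15a and miR-16-1, had 11 and 7 reads, and Mir133a-1hg, host of muscle microRNAs, had 10 and 6. By position, 32 lncRNA genes hold a microRNA. Of the 6 tested, Gm26551 passed, higher in replicate 2, and 3 leaned to replicate 1, with a median log2 ratio of -0.0029. A long-read library of this kind measures the host RNA and not the microRNA.

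Genes of imprinted loci gave no call either. With 4 tested, as with the 4 of the muscle list below, this cannot be told from the 11.7% that passed over all genes. Of 9 names 5 had reads, 216 and 184 in all, and 4 were tested with 0 at an unadjusted p under 0.05, 1 leaning to replicate 1 and 3 to replicate 2. Nctc1 made up most of these reads. Peg13, an imprinted intronic RNA, had 23 and 12 reads, and Airn, the antisense RNA of Igf2r, had 8 and 9. Snhg14, which spans the Snord115 and Snord116 clusters, had 6 and 9, and 15 of its 15 reads were Genomic. Of 13 muscle lncRNA names 5 were genes of the rule with reads. Of these 4 were tested, with none past the threshold and 2310065F04Rik at an unadjusted p under 0.05. Mrln, Mtln and Spaar are also on the list and had reads, but fall outside the rule. Mrln (265 and 84 reads, 2.54-fold, 1.98 to 3.29) and Mtln (164 and 73, 1.81-fold, 1.37 to 2.42) were both higher in replicate 1 past the threshold. Spaar had 1 read and 2 reads. The other genes of the rule tested were Nctc1, Myhas and Gm17281, which had 9 and 4 reads. Gm28653, a lncRNA at the miR-206 and miR-133b locus, had 1 read in each library. By edgeR's exact test none of the genes of the rule in these lists passed.

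Several abundant genes carry a non-coding type here but a coding one in RefSeq. RefSeq matched 727 of the 1225 genes: 684 as lncRNA, 32 as coding, 8 as pseudogenes and 3 as other. The 32 held 13.6% of lncRNA reads in replicate 1 and 12.4% in replicate 2 (2-sided Fisher's exact test, p = 0.0663). Ndufb1-ps, which RefSeq gives as Ndufb1, a subunit of respiratory complex I, had 338 and 230 reads. Cct6a, a chaperonin subunit, had 177 and 147, and Tmem134, Ptpmt1 and 1810058I24Rik were also among the 20 most abundant genes. In Cct6a a chain of 12 introns held 88.1% and 87.1% of spliced reads. On chromosome 17, Gm42418, AY036118 and Gm26917 lie at a ribosomal RNA locus and held 190 and 119 reads, 3.23% and 2.57% of lncRNA reads. AY036118 shares 100% of its 31-base words with another gene. For Gm20427 93.5% occur in other genes, most often H2-Ke6, and for Gm10076 84.2%, most often Rpl41, so these levels are uncertain. Gm10076 was named after its values were seen.

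Between the libraries, 9 of the 171 tested lncRNA genes (5.26%) passed the threshold, against 980 of 8394 genes tested (11.7%) and 940 of 8047 coding genes. Higher in replicate 1 were 2, where 4.61% of all genes were, and higher in replicate 2 were 7, where 7.06% were. The split changed with the scaling: it was 6 and 6 without TMM factors and 4 and 7 with DESeq2 size factors. At matched depth the shares were closer. Of genes with 10 to 19 reads, 1.09% of lncRNA and 1.58% of coding genes passed. With 20 to 49 reads 6.12% and 3.86% passed, and with at least 50 reads 5 of 30 lncRNA genes and 819 of 3898 coding genes. Of the 171, 100 leaned to replicate 1 and 71 to replicate 2, with a median log2 ratio of 0.24, against -0.0073 over all genes tested. Without the TMM factors the split of the 171 was 115 to 56, and the all-gene median moved by 0.11.

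**Figure D3:**
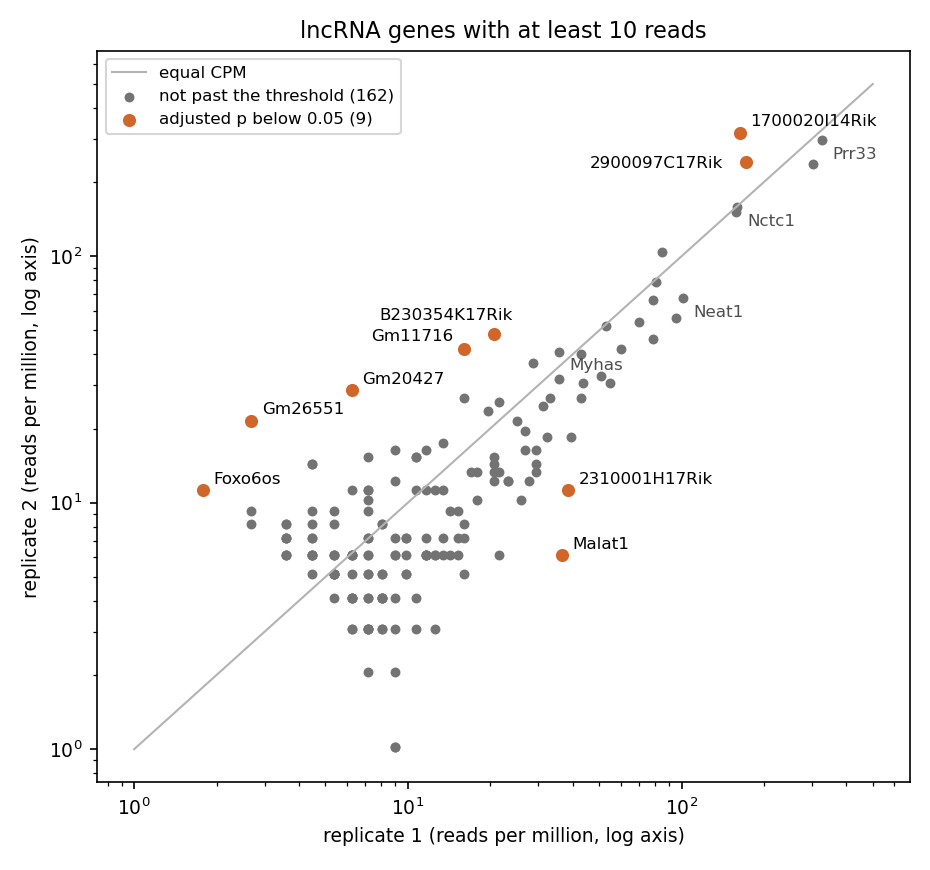
CPM of the 171 tested lncRNA genes in replicate 1 (x axis) and replicate 2 (y axis), both log axes, with the genes that passed the threshold marked. Malat1 and 2310001H17Rik lie on the side of replicate 1, and the other 7 on that of replicate 2.

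The remaining genes that passed were low. B230354K17Rik had 23 reads in replicate 1 against 47 in replicate 2 (2.54-fold, 1.51 to 4.37, adjusted p = 0.00278, exact binomial test). Gm11716 had 18 and 41 reads (2.83-fold, 1.59 to 5.23, adjusted p = 0.00307), and in replicate 2 a single 3-exon model of its own held 31 of the 41. Gm20427 had 7 and 28 (4.96-fold, 2.12 to 13.5, adjusted p = 0.000516), and its 7 reads of replicate 1 were all Genomic while 22 of replicate 2 were in a 2-exon model. Those 22 reads carry an intron annotated for another gene on the same strand, so they could belong to that gene, and this bears on the pair with Rxrb below as well. Gm26551 had 3 and 21 (8.69-fold, 2.59 to 45.5, adjusted p = 0.000636), all Genomic, with 15 of the 21 in 1 model. Foxo6os had 2 and 11 (6.82-fold, 1.49 to 63.4, adjusted p = 0.0392), and without TMM factors its adjusted p was 0.0677. 2310001H17Rik had 43 and 11 (3.15-fold higher in replicate 1, 1.60 to 6.77, adjusted p = 0.00443), and with Known reads alone its adjusted p was 0.546. With a dispersion of 0.0622 estimated over all genes, edgeR's exact test called 0 of the 171, with 10 at an unadjusted p under 0.05, where the exact binomial test had 27. It called 24 genes in all.

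The models of lncRNA genes differed in kind from those of coding genes. Known is a read assigned to an annotated transcript, ISM an incomplete match to one, NIC a new combination of known splice sites, NNC a model with a new splice site, and Genomic a model that fits none of these. Known models held 46.8% and 45.6% of lncRNA reads and 63.3% and 59.1% of coding reads. Genomic models held 24.1% and 26.9% of lncRNA reads, higher in replicate 2 (2-sided Fisher's exact test, adjusted p = 0.00389), and 3.11% and 2.64% of coding reads. NIC models held 5.14% and 3.39%, higher in replicate 1 (adjusted p = 7.14e-05). Antisense genes had 42.4% and 42.9% Genomic reads, lincRNAs 21.3% and 24.7%, processed transcripts 14.8% and 18.8%, and bidirectional promoter lncRNAs 6.19% and 8.39%. Models of 1 exon held 43.3% and 44.0% of lncRNA reads and 5.48% and 4.75% of coding reads.

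**Figure D4:**
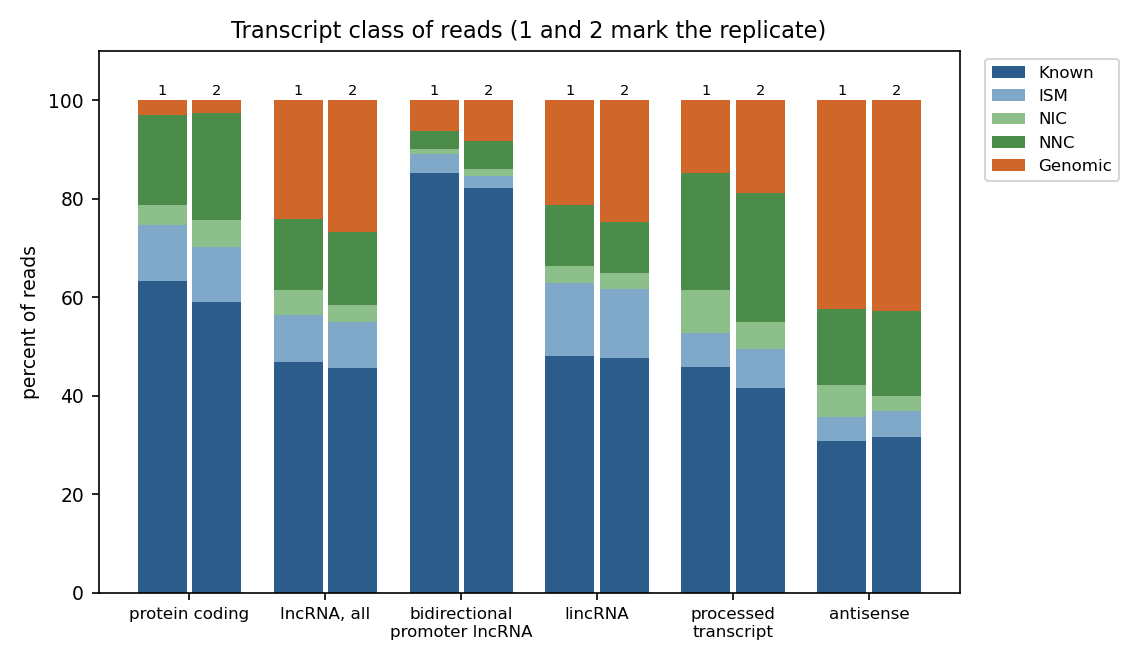
Share of reads in each transcript class for lncRNA genes by type and for coding genes, in each library, in percent; the sense intronic and sense overlapping types, with few reads, are not drawn. Of the 4 types drawn, Genomic models take the largest part in antisense genes (42.4% and 42.9%) and Known models in bidirectional promoter lncRNAs (85.1% and 82.1%).

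In 412 of the 1225 genes (33.6%) every read was Genomic, against 3.80% of detected coding genes. Of the 171 with at least 10 reads these were 28 (16.4%), against 21 of the 8047 coding genes with at least 10 reads (0.26%). AC154200.1, with 88 and 45 reads, and Gm20659, with 48 and 39, are of this kind. The Gm20659 models had 100% of their bases over coding exons of the opposite strand, where Dusp3, a phosphatase gene, lies, and those of AC154200.1 had 0%. Zfp652os had 47 Genomic reads of 49 and 27 of 30. Over antisense genes, 29.0% and 33.5% of Genomic reads had at least 50% of their bases over an opposite coding exon, against 5.99% and 4.60% of reads of other classes. For any overlap with such an exon the shares were 54.1% and 63.9% of Genomic reads against 65.4% and 64.9% of the others, so the contrast lies in the extent of the overlap. The strand of a model is the one deposited, and that of single-exon models was not checked.

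Spliced reads mostly used annotated introns. Every intron was annotated for the gene itself in 2129 of 3332 spliced reads (63.9%) of replicate 1 and in 1668 of 2588 (64.5%) of replicate 2. An intron annotated on the opposite strand occurred in 1 read of replicate 1 and in none of replicate 2. No intron was annotated for the gene in 14.9% and 14.7%. An intron annotated for another gene on the same strand occurred in 61 reads (1.83%) and 54 reads (2.09%), and these included the 43 spliced reads of Mir22hg and the 22 of Gm20427. Of 17 genes with at least 20 spliced reads in each library, 16 had the same leading intron chain in both, the exception being 2210408F21Rik. Its share differed past the threshold in Atcayos, antisense to Nmrk2, with 35 of 63 spliced reads (55.6%) in replicate 1 and 52 of 64 (81.3%) in replicate 2 (2-sided Fisher's exact test, p = 0.00223, adjusted p = 0.0379). With a minimum of 10 spliced reads, where 37 genes were tested, 0 passed. Gm15179 had 23 of 54 (42.6%) and 22 of 30 (73.3%), which did not pass (adjusted p = 0.0972). 2310065F04Rik was the opposite of a single chain: 22 and 19 chains were seen, 12 in both, and the leading one held 18.2% and 19.1%. Gm29773 was alike, with 22 and 20 chains.

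An opposite-strand coding partner, overlapping or starting within 1 kb, was found for 839 of the 1225 genes, in 1105 pairs. In 143 pairs, formed by 112 lncRNA genes, the lncRNA gene had at least 10 reads. It exceeded its partner in both libraries in 38, fell below it in both in 81, and was mixed in 24. A gene with several partners counts in each of its pairs with the same reads. The 38 include genes that RefSeq lists as coding, such as Ndufb1-ps and Cct6a. The ratio of the pair differed between the libraries past the threshold in 6 pairs, with 17 at an unadjusted p under 0.05 (2-sided Fisher's exact test). Myhas had 2.63 reads per 100 of Myh1 in replicate 1 and 0.56 in replicate 2 (adjusted p = 8.17e-09), with 40 Myhas reads in each. Against Myh4, whose start lies 456 bases away, it had 0.19 and 0.13 per 100, which did not pass (adjusted p = 0.663, 2-sided Fisher's exact test). Atcayos had 90 and 77 reads against 108 and 212 of Nmrk2, a nicotinamide riboside kinase, or 83.3 and 36.3 per 100 (adjusted p = 0.000771). In these pairs the lncRNA gene itself did not pass the threshold. Gm26551 differed against 3 partners, Cdkn2aipnl, Skp1a and Ppp2ca, and Gm20427 against Rxrb; in these 4 the lncRNA gene had passed the threshold itself.

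Other pairs with many lncRNA reads did not pass. Prr33 had 12.4 and 15.9 reads per 100 of Tnnt3 (adjusted p = 0.0845, 2-sided Fisher's exact test). Gm15179 had 57 and 32 reads opposite Des, the desmin gene, with 4101 and 3274, or 1.39 and 0.98 per 100 (adjusted p = 0.653). Ndufb1-ps far exceeded its partner Cpsf2, which had 21 and 18 reads, and Cct6a exceeded Psph, which had 23 and 21. Gm20659 had 49.5 and 60.0 reads per 100 of Dusp3 (adjusted p = 0.936), and Gm29773 exceeded Nup133, which had 20 and 21 reads.

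**Figure D5:**
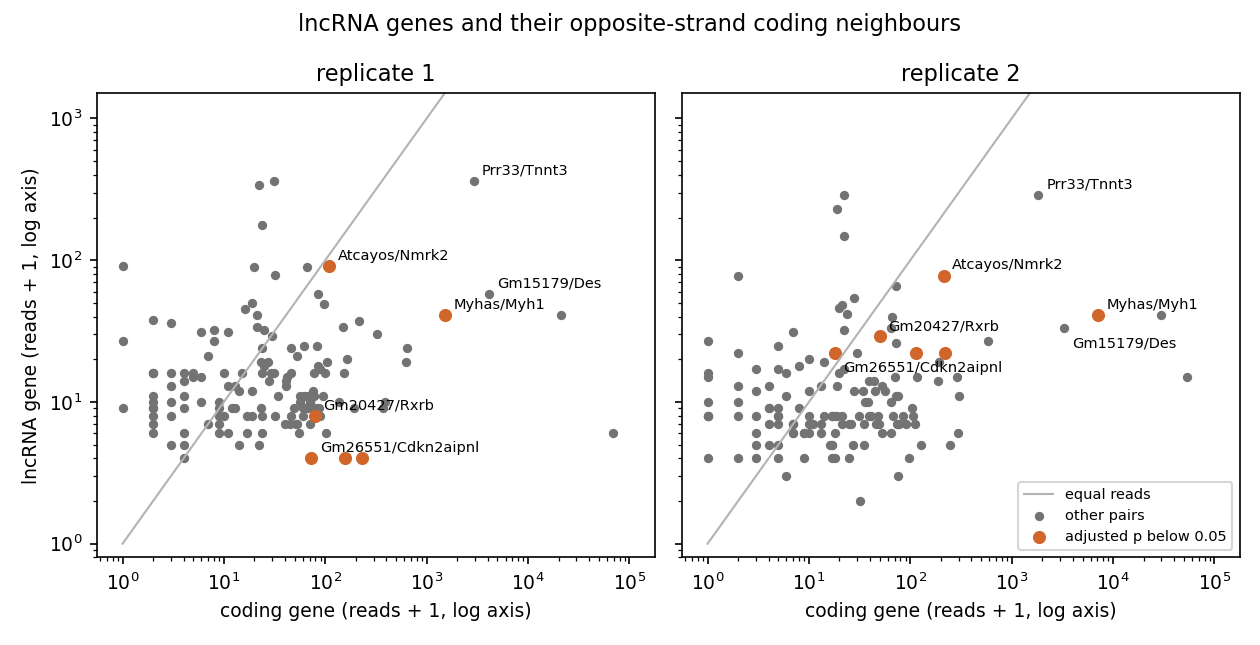
Reads of the lncRNA gene (y axis) against reads of its opposite-strand coding partner (x axis), both plus 1 on log axes, 1 panel per library and 1 point per pair, with the line of equal reads and the 6 pairs past the threshold marked. Myhas keeps its height at 40 reads while Myh1 moves from 1520 to 7086, and Gm26551 moves up from 3 to 21 reads.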

How the data were processed

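Long-read RNA sequencing was analysed in 2 libraries, replicates 1 and 2 of a single group. The deposited tables give read counts per transcript model, with each model's class, number of exons and length in bases, and the deposited models carry GENCODE M21 gene types on mm10, per the file headers and the labels. Models were built by the authors in each library separately, and the aligner is not given in the sources used here. Counts were summed per gene, and spike-in genes were left out. The depth was 1117891 and 975696 reads, so that 3 reads are 2.68 and 3.07 CPM.

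TMM factors (edgeR 4.0.16, R 4.3.3) were 1.04 and 0.961. Each of 8394 genes with at least 10 reads was tested by the exact binomial test (2-sided), p-values were adjusted by Benjamini-Hochberg and the threshold was 0.05, since with 1 library per side a quasi-likelihood fit has no residual degrees of freedom. Fold intervals are exact (95%), and log2 ratios add 0.5 reads. Shares were compared by Fisher's exact test (scipy 1.17.1), adjusted within each family. The scripts were tested on simulated data. Named genes were the 20 with the highest mean CPM, list genes with at least 10 reads, up to 10 per direction past the threshold, those with at least 10 reads in 1 library and 0 in the other (there were none), the 10 with most spliced reads and the 10 opposite-strand pairs with most reads. The genes and lists were chosen with earlier results of these data known. Alternatives were DESeq2 1.42.0 size factors, no TMM factor, other read minimums, subsets of model classes and edgeR's exact test. Sequences came from RefSeq and GENCODE tables.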

Additional observations from a re-analysis of the deposited data

Results flagged for a closer look

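Models that the deposited tables assign to no annotated gene, and that overlap one of the lncRNA genes on its strand, held 358 reads in replicate 1 and 199 in replicate 2. They are not among the counts of the report, entered only an alternative in which they were joined to those genes, and lie above the limit of 3 reads that a count of 0 allows. For Gm42418 at the ribosomal RNA locus, adding such reads raised the counts from 107 and 55 to 349 and 169, and the adjusted p of its difference went from 0.0578 to 1.06e-06 (exact binomial test). Gm42418 passed the threshold under 6 of 9 alternatives, this one included, so its call changes with other settings too. With these reads joined, 11 lncRNA genes passed, 3 higher in replicate 1 and 8 in replicate 2. For Nctc1 the counts were then 179 and 154.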

How the results depend on the processing

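No paired analysis was possible because the libraries form 1 group. Of the 9 lncRNA genes past the threshold, edgeR's exact test with a common dispersion kept 0 in all (0 higher in replicate 1, 0 in replicate 2). Those higher in replicate 1 were 4 with DESeq2 size factors, 6 without TMM factors (with 6 higher in replicate 2), 4 with at least 20 reads, 4 without Genomic reads and 4 with Known, NIC and NNC reads, and those higher in replicate 2 were 4 with Known reads alone. The lncRNA share of reads was 0.384% without Genomic reads, 0.38% with Known, NIC and NNC reads and 0.376% with Known reads. It was 0.442% without genes that overlap another on their strand, 0.911% without the 20 most abundant genes, and 0.42% without genes coding in RefSeq and the ribosomal RNA locus, an alternative chosen after the data were seen. It was higher in replicate 1 under each of these.

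Type shares, without Genomic reads, with Known, NIC and NNC reads and with Known reads, were 44.9%, 41.8% and 45.0% for lincRNA, 20.7%, 21.6% and 18.2% for antisense, 21.5%, 22.4% and 18.2% for processed transcripts, 11.8%, 13.0% and 17.1% for bidirectional promoter, 1.14%, 1.23% and 1.56% for sense intronic, and 0.026%, 0.030% and 0.042% for sense overlapping genes. Single-exon shares were 26.0%, 23.9% and 33.7%. Without the 10 genes with the most reads the class shares were Known 41.3%, ISM 6.46%, NIC 5.79%, NNC 15.7% and Genomic 30.7%. Pairs past the threshold were 3 with Known, NIC and NNC reads, and the leading chain differed in 0 of 37 genes with a minimum of 10 spliced reads (Fisher's exact test). The cause of these changes was not tested. Depth limits the precision: the median lncRNA gene had 2 reads, and 171 of 1225 reached the 10 reads needed for a test.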
